A study of Mus musculus with 8 samples.

Results

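The 8 genes described here encode transient receptor potential (TRP) channels of sensory ganglia: Trpv1, Trpv2, Trpa1, Trpm2, Trpm3, Trpm8, Trpc5 and Trpc6. They were chosen by name, from the 48431 genes listed, and all 8 were present in the table. RNA came from dorsal root ganglia of WT mice of the strain labelled SW that had received saline, in 4 libraries labelled female and 4 labelled male, each numbered 1 to 4. Every library shares the genotype, strain and saline treatment, the labels give no age, and they do not say whether a library holds the ganglia of one animal or of several. The p-values therefore measure the spread between these libraries, which may be partly technical. The comparison the labels imply is between the sexes, and the levels themselves show which TRP genes the ganglia expressed.

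TRP channels are cation channels that open to temperature, irritants, lipids or signals from receptors, and let in calcium and sodium. In the dorsal root ganglia, the cell bodies of sensory neurons beside the spinal cord, they turn heat, cold and chemical irritants into nerve signals. Inflammatory mediators that act through phospholipase C, protein kinases or growth factor receptors can sensitise several of them, Trpv1 above all.

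Libraries that stand apart bear on every comparison by label. The library labelled female 1 had 0.270 CPM (reads of a gene per 1000000 counted reads) of the X-inactivation RNA Xist and 102 CPM of the Y-linked gene Ddx3y. The library labelled male 1 had 294 CPM of Xist and 0.855 CPM of Ddx3y. Both go against their labels, so the differences of the 8 genes, of the lists and of most other genes named are also given without this pair. The other libraries matched their labels, with Xist at 162 to 349 CPM in those labelled female and at 1.63 to 5.44 CPM in those labelled male. Central nervous system markers summed to 13.1 to 23.8 CPM in the 4 libraries labelled female and to 13.3 to 322 CPM in the 4 labelled male, where the library labelled male 2 held the highest sum. The transcript AY036118 was listed at 0 in female 3, female 4 and male 4 and at 20085 to 46216 CPM in the other libraries, so the differences of the 8 genes are given within each set of libraries too. The set above 0 holds the pair against its labels, 2 of its 5 libraries, and the set at 0 holds 2 libraries labelled female and 1 labelled male. The 10 pan-sensory-neuron markers were above 0 in every library, as was the nociceptor sodium channel gene Scn10a at 502 to 929 CPM. Depth ran from 7497795 to 12155806 counted reads, a 1.62-fold range.

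Where the genes lie is given on GRCm38 with GENCODE M21. Trpv1, the receptor for capsaicin, noxious heat and protons, lies on chromosome 11 from 73234292 to 73261242, and its close relative Trpv2 on the same chromosome from 62574486 to 62600515, both on the plus strand. Trpa1, the receptor for mustard oil and other reactive irritants, spans 14872648 to 14918862 on the minus strand of chromosome 1. The cold and menthol receptor Trpm8 is also on chromosome 1, from 88277661 to 88389293 on the plus strand. Trpm2, a channel opened by ADP-ribose and oxidative stress, runs from 77907722 to 77970563 on the minus strand of chromosome 10, and Trpm3, a channel opened by heat and by the steroid pregnenolone sulfate, from 22139046 to 22995410 on the plus strand of chromosome 19. Trpc5, a channel coupled to Gq signalling, is X-linked, at 144381671 to 144688180 on the minus strand. Trpc6, a channel opened by diacylglycerol, occupies 8544142 to 8680741 on the plus strand of chromosome 9. Trpv1, Trpv2 and Trpa1 overlap no other annotated gene. Trpm3 overlaps the antisense gene Gm27151, which reached at most 0.686 CPM, and the strand setting of the counting is not given in the sources used here.

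Promoter windows of RefSeq (GRCm38.p6, 250 bases before each start and 50 after it) matched 7 of the 8 genes in 10 windows, all but Trpa1. Those printed belong to 3 genes whose highest values came from the same 4 libraries (Trpv1, Trpv2 and Trpm2) and to Trpm8, whose order of libraries was another. The windows are chr11:73233899-73234198 on the plus strand for Trpv1, chr11:62574236-62574535 on the plus strand for the first Trpv2 window, chr10:77969823-77970122 on the minus strand for Trpm2 and chr1:88306485-88306784 on the plus strand for Trpm8. Those of Trpm2 and Trpm8 lie inside the GENCODE spans of these genes, and that of Trpv1 ends before its GENCODE span begins. Each reads 5′ to 3′ along its gene, and capitals mark matches to the motifs searched on both strands.
Trpv1: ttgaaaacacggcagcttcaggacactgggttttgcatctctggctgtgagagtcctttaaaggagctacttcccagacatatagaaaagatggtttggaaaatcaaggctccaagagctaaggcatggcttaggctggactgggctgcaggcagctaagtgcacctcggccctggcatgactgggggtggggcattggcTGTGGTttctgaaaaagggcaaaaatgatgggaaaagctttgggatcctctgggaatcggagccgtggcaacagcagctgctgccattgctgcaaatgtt
Trpv2: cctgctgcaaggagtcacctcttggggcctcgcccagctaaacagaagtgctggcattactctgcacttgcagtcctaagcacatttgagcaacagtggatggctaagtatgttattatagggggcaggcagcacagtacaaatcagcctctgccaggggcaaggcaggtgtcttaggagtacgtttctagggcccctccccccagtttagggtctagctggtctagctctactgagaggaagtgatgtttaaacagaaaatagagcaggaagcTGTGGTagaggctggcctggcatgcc
Trpm2: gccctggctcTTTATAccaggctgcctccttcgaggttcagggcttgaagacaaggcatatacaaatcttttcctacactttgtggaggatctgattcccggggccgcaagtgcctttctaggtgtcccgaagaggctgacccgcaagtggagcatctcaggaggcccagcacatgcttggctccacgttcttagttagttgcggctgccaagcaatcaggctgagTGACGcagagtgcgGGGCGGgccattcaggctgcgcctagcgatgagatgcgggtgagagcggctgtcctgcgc
Trpm8: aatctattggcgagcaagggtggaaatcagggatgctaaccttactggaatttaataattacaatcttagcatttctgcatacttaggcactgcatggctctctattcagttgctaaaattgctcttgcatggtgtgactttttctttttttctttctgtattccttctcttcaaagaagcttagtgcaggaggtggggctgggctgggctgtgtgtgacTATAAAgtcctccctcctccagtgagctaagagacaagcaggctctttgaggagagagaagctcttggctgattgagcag
Positions are counted from the RefSeq start of each window, as 0, and not from the GENCODE starts above. TGTGGT, a core bound by RUNX factors, began at −50 in Trpv1 and at 24 in Trpv2. It occurred in 4 of the 10 windows of these genes, 2 of them overlapping windows of Trpv2, and in 16.8% of all 32851 promoter windows. TATAAA, the TATA box, began at −30 in Trpm8 and lay on the opposite strand at −240 in Trpm2, as TTTATA in the printed strand; 13.6% of all windows held it. In Trpm2, GGGCGG, the GC box, began at −10 and TGACG, the core of the cAMP response element, at −24; 35.7% and 20.8% of all windows held these motifs. CpG pairs numbered 4 in the Trpv1 window, 2 in the Trpv2 window, 15 in the Trpm2 window and 1 in the Trpm8 window, against a median of 7 over all windows. These matches describe the letters only.

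Trpv2 gave the most reads of the 8 genes in all 8 libraries. Its mean was 33.0 ± 12.4 CPM (SD, n = 8), against 22.2 ± 9.14 CPM for Trpv1, 14.1 ± 4.66 CPM for Trpm2 and 14.1 ± 4.46 CPM for Trpa1. Trpc6 followed at 11.4 ± 2.31 CPM and Trpm3 at 10.3 ± 3.54 CPM. Trpm8 was far lower at 1.93 ± 0.825 CPM, and Trpc5 lowest at 0.592 ± 0.440 CPM. Trpv2 exceeded Trpv1 in 8 of 8 libraries, and Trpv1 exceeded Trpa1 in 7 of 8, the exception being the library labelled female 1. Neighbours lower in this order did not separate beyond their spread: Trpm2 exceeded Trpa1 in 5 of 8 libraries, and Trpa1 exceeded Trpc6 in 5 of 8. Trpc6 exceeded Trpm3 in 5 libraries and was below it in 2. Trpm8 exceeded Trpc5 in 6 of 8.

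These CPM values are not divided by length, since a 3′ end library reads each transcript near its end. Divided by the longest coding transcript, Trpv2 had 11.4 CPM per kb, Trpv1 6.61, Trpc6 3.48, Trpa1 3.31 and Trpm2 1.94 CPM per kb. Trpm3, with a transcript of 12305 bases, had 0.833 CPM per kb, Trpm8 0.464 and Trpc5 0.142 CPM per kb. Trpv2 and Trpv1 led and Trpm8 and Trpc5 came last on both scales, while Trpc6 moved ahead of Trpa1 and Trpm2 on the scale per kb. In a 3′ end library the scale per kb lowers genes with long transcripts, so it does not check the order in CPM. Among the genes tested, 32.3% had a higher mean CPM than Trpv2, 41.1% than Trpv1, 51.7% than Trpa1 and 89.4% than Trpm8.

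**Figure D1:**
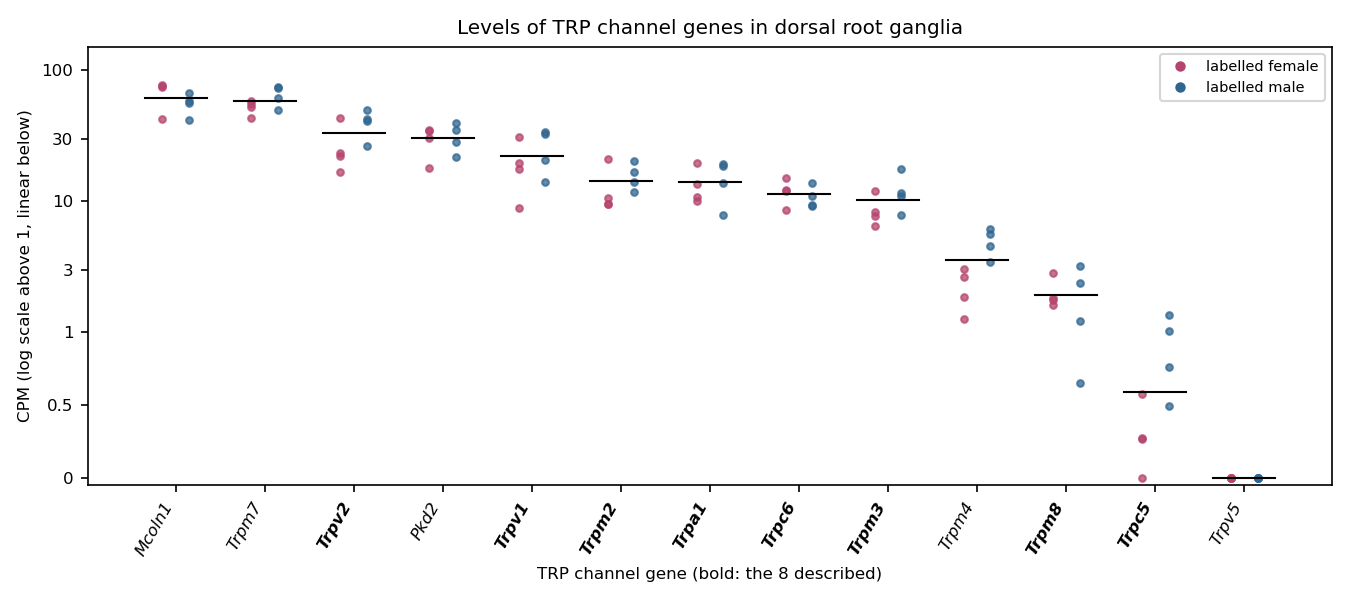
CPM of the 8 TRP genes and of the other TRP genes named in the text (vertical axis, logarithmic above 1 CPM and linear below) in each library, with points for libraries labelled female to the left of those labelled male and a line at the mean of 8 libraries. Trpv2 and Trpv1, in bold with the other genes described, averaged 33.0 and 22.2 CPM, and Trpc5 averaged 0.592 CPM.

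The 8 genes together took 64.2 to 137 CPM in the libraries labelled female and 90.7 to 144 CPM in those labelled male. That was 24.6% to 43.6% of all reads of the TRP family, with both ends of the range in libraries labelled female (1 and 2). The rest of the family was led by genes that many tissues express. Mcoln1, a lysosomal channel, had 74.5, 42.3, 74.99 and 76.96 CPM in the libraries labelled female 1 to 4, and 57.9, 41.3, 56.2 and 67.4 CPM in those labelled male 1 to 4. Trpm7, a channel fused to a kinase, ranged from 43.4 to 58.2 CPM in libraries labelled female and from 49.6 to 73.8 CPM in those labelled male. Pkd2, the polycystin channel, ranged from 17.8 to 34.9 CPM under the female label and from 21.6 to 39.3 CPM under the male label. Of the 20 other family genes, 9 passed the filter (a mean of 1 CPM over the 8 libraries), and Trpv5 was at 0 in every library, where the floor of 3 reads lies between 0.247 and 0.400 CPM.

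Between the labels, none of the 8 TRP genes passed the test. Of 14505 genes tested with limma, 0 were called at an adjusted p under 0.05 (0%), and so were 0 of the 7 TRP genes that passed the filter. At an unadjusted p under 0.05 there were 1595 genes (11%), with 0 of the 7 among them. The values of the groups overlapped for all 8 TRP genes, while 4.23% of the genes tested had groups that did not overlap. The log2 difference, female minus male, was negative for 5 of the 7, with a median of −0.34, against 67.5% of all genes tested and a median of −0.18. Scaling by median ratios moved the median of all genes to −0.01, that of the 7 genes to −0.15, and left 4 of the 7 negative. Without both replicate 1 libraries, 3 of the 7 were negative and their median was 0.05. Of all genes tested, 64.4% were still negative in that fit, with a median of −0.12. That fit called 0 of the 7 and 6 genes in all (0.0414%), and 0 of the 7 and 4 genes in all (0.0276%) once the library labelled male 2 was also left out. The 6 genes included Xist and the Y-linked Ddx3y, Eif2s3y, Uty and Kdm5d. With all 8 libraries these sex genes were not called either, with limma adjusted p of 0.512 for Xist and 0.451 for Ddx3y. Among the libraries with AY036118 at 0, 0 of the 7 were called, and 223 genes in all (1.54%), but this fit has 1 library labelled male, which is taken to vary as the others do, and says little about the members. In bulk tissue, fewer cells of a type and less RNA per cell cannot be told apart.

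The heat and irritant channels come first. Trpv1 had 8.83, 30.8, 19.7 and 17.6 CPM in the libraries labelled female 1 to 4, and 33.7, 32.4, 20.7 and 14.1 CPM in those labelled male 1 to 4. The groups overlapped, and the lowest and the highest values, 3.82-fold apart, came from the libraries whose sex genes go against their labels, female 1 and male 1. Means were 19.2 ± 9.02 CPM for the female label and 25.2 ± 9.47 CPM for the male label (SD, n = 4 each). The log2 difference was −0.41 (SE 0.38, 95% interval −1.25 to 0.42, limma adjusted p = 0.586). Without that pair of libraries it was 0.05 (interval −0.76 to 0.87). It was −0.73 among the libraries with AY036118 above 0, a set that includes female 1 and male 1, and 0.38 among those with it at 0. Single libraries moved it too: it was −0.11 without female 1 and −0.67 without female 2.

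Trpv2, reported to open at higher temperatures than Trpv1 when expressed in cultured cells, had 16.7, 43.1, 21.9 and 23.2 CPM in the libraries labelled female 1 to 4. It had 40.9, 49.9, 42.4 and 26.2 CPM in those labelled male 1 to 4. Of the 4 libraries labelled female, 3 lay below all labelled male, and female 2 lay among them. Means were 26.2 ± 11.6 CPM and 39.8 ± 9.94 CPM for the female and the male label (SD, n = 4 each), a log2 difference of −0.63 (SE 0.30, 95% interval −1.30 to 0.03, limma adjusted p = 0.446). The call turned on the library labelled female 2: without it the difference was −0.90 with a limma adjusted p of 0.0471, where 9.33% of all genes were called. On the main axis of variation of all genes tested (the first principal component), female 2 scored 52.3. The other libraries labelled female scored −58.3 to −40.8, so leaving female 2 out puts that label on one side of this axis. Array weights ran from 0.312 for female 2, the lowest of the 8 libraries, to 3.13 for female 4, the highest. The female side of that fit thus leaned on female 4. With these weights the difference was −0.85 with a limma adjusted p of 0.0113, where 30.1% of all genes were called. Without both replicate 1 libraries it was −0.43 (interval −1.23 to 0.37), and it was −0.70 and −0.20 among the libraries with AY036118 above 0 and at 0.

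Trpa1 had 10.01, 19.4, 10.8 and 13.5 CPM in the libraries labelled female 1 to 4, and 18.5, 19.0, 13.8 and 7.79 CPM in those labelled male 1 to 4. The groups overlapped along nearly their whole range, with female 2 highest and male 4 lowest. Means were 13.4 ± 4.25 CPM and 14.8 ± 5.20 CPM for the female and the male label (SD, n = 4 each), a log2 difference of −0.10 (SE 0.31, 95% interval −0.79 to 0.59, limma adjusted p = 0.883). The sign turned under several settings: the difference was 0.09 with median ratio scaling, 0.12 with quantile normalization and 0.14 without both replicate 1 libraries. It was −0.26 and 0.57 among the libraries with AY036118 above 0 and at 0.

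Among the melastatin channels, Trpm2 had 10.5, 20.9, 9.58 and 9.47 CPM in the libraries labelled female 1 to 4, and 13.9, 20.3, 16.7 and 11.7 CPM in those labelled male 1 to 4. Again 3 libraries labelled female lay below all labelled male, and female 2 lay above them all. The log2 difference was −0.34 (SE 0.29, 95% interval −0.97 to 0.30, limma adjusted p = 0.565), with means of 12.6 ± 5.54 CPM and 15.7 ± 3.73 CPM for the female and the male label (SD, n = 4 each). With array weights it was −0.62 with an adjusted p of 0.0430, where 30.1% of all genes were called, and without female 2 it was −0.59. It was −0.33 without both replicate 1 libraries, and −0.16 and −0.27 among the libraries with AY036118 above 0 and at 0.

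Trpm3 had 7.66, 8.31, 12.0 and 6.40 CPM in the libraries labelled female 1 to 4, and 10.9, 11.5, 7.84 and 17.4 CPM in those labelled male 1 to 4. The groups overlapped, and its highest library was male 4, the lowest for Trpa1. Means were 8.59 ± 2.39 CPM and 11.9 ± 4.01 CPM for the female and the male label (SD, n = 4 each). The log2 difference was −0.41 (SE 0.28, 95% interval −1.03 to 0.20, limma adjusted p = 0.492). It was −0.22 without the library labelled male 4, −0.40 without both replicate 1 libraries, and −0.29 and −0.91 among the libraries with AY036118 above 0 and at 0.

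Trpm8 rested on few reads, 6 to 31 a library. It had 1.62, 1.81, 1.76 and 2.80 CPM in the libraries labelled female 1 to 4, and 1.22, 0.653, 2.35 and 3.18 CPM in those labelled male 1 to 4. Both ends of its range lay in libraries labelled male, and its exact binomial intervals in those libraries, 0.239 to 1.42 CPM and 2.16 to 4.51 CPM, did not overlap. Means were 1.999 ± 0.540 CPM and 1.85 ± 1.13 CPM for the female and the male label (SD, n = 4 each), a log2 difference of 0.15 (SE 0.32, 95% interval −0.55 to 0.84, limma adjusted p = 0.823). The sign turned without the library labelled male 2, to −0.085. The difference was 0.12 without both replicate 1 libraries (interval −0.79 to 1.03), and it was 0.23 and −0.37 among the libraries with AY036118 above 0 and at 0.

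The canonical channels differed in depth. Trpc5 had 3, 7, 0 and 2 reads in the libraries labelled female 1 to 4, and 11, 7, 5 and 10 reads in those labelled male 1 to 4. In CPM these were 0.270, 0.576, 0 and 0.267 for the female label, and 1.34, 0.761, 0.490 and 1.03 for the male label. The exact binomial interval of the 0 in female 3 reaches 0.465 CPM. Only female 2 reached into the range of the libraries labelled male. Trpc5 was under the filter, and an exact two-sided permutation test of its log2 difference of −0.57 gave p = 0.0571, where the smallest p possible is 0.0286. With no filter on low values, limma gave that difference an interval of −0.99 to −0.16 and an adjusted p of 0.553. In that fit 8.83% of all genes had an unadjusted p under 0.05 and 0 were called. The size of that difference depends on the pseudocount at so few reads: it was −0.87 with 0.5 and −1.62 with 0.1 in place of 1, with the same exact p. The library labelled male 1, one of the pair against its label, was the highest. Without that pair the difference was −0.47 (exact permutation p = 0.2), where 3 libraries against 3 cannot give a p below 0.1. It was −0.37 and −0.85 among the libraries with AY036118 above 0 and at 0.

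Trpc6 varied least of the 8 genes. It had 8.56, 12.2, 12.0 and 15.1 CPM in the libraries labelled female 1 to 4, and 13.7, 9.14, 10.9 and 9.33 CPM in those labelled male 1 to 4. The ranges overlapped, with female 1 lowest and female 4 highest. Means were 11.9 ± 2.66 CPM and 10.8 ± 2.101 CPM for the female and the male label (SD, n = 4 each), a log2 difference of 0.13 (SE 0.24, 95% interval −0.39 to 0.65, limma adjusted p = 0.791). It ranged from 0.019 without female 4 to 0.27 without female 1. It was 0.38 without both replicate 1 libraries (interval −0.18 to 0.95), and −0.11 and 0.48 among the libraries with AY036118 above 0 and at 0.

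**Figure D2:**
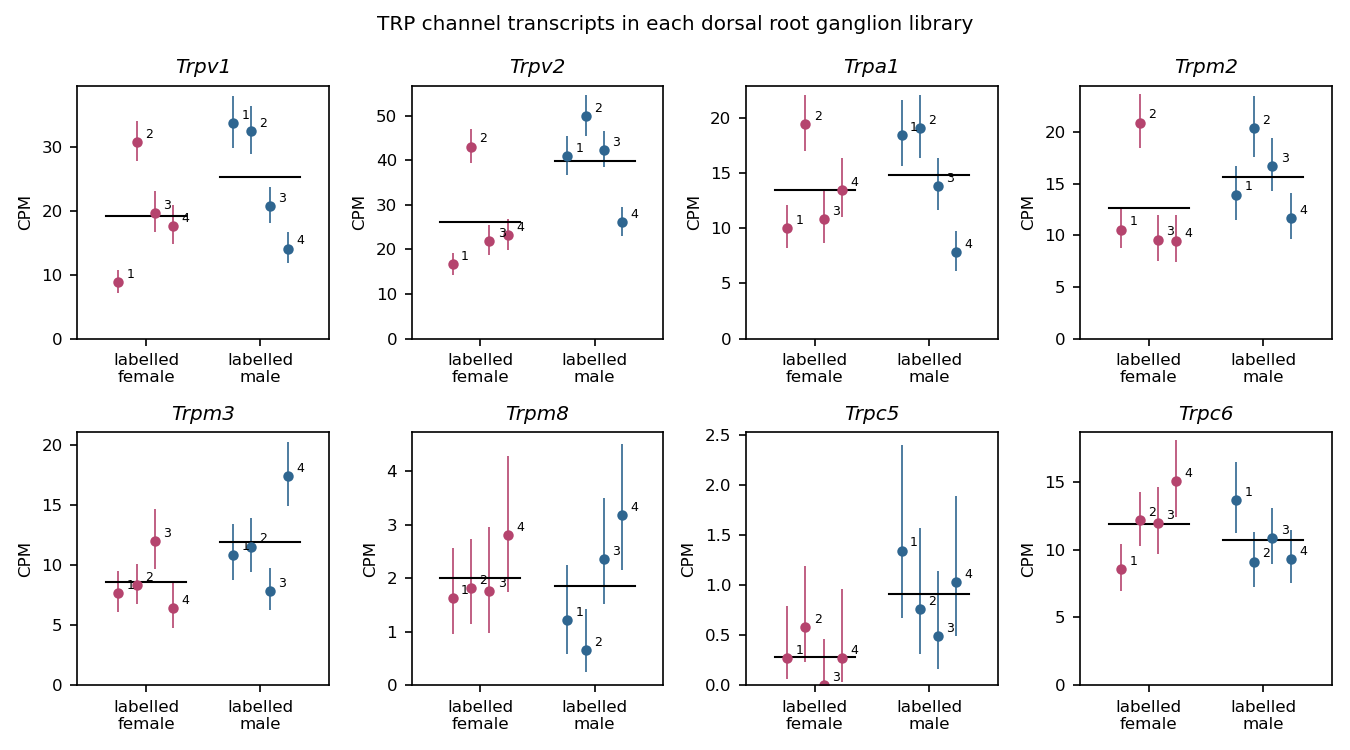
CPM (vertical axes, each from 0) of the 8 TRP genes in each library, numbered by replicate, with libraries labelled female left of those labelled male; lines give group means and bars exact binomial 95% intervals, which cover counting error only. For Trpv2 and Trpm2, female 2 (43.1 and 20.9 CPM) stands apart from the other libraries labelled female.

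**Figure D3:**
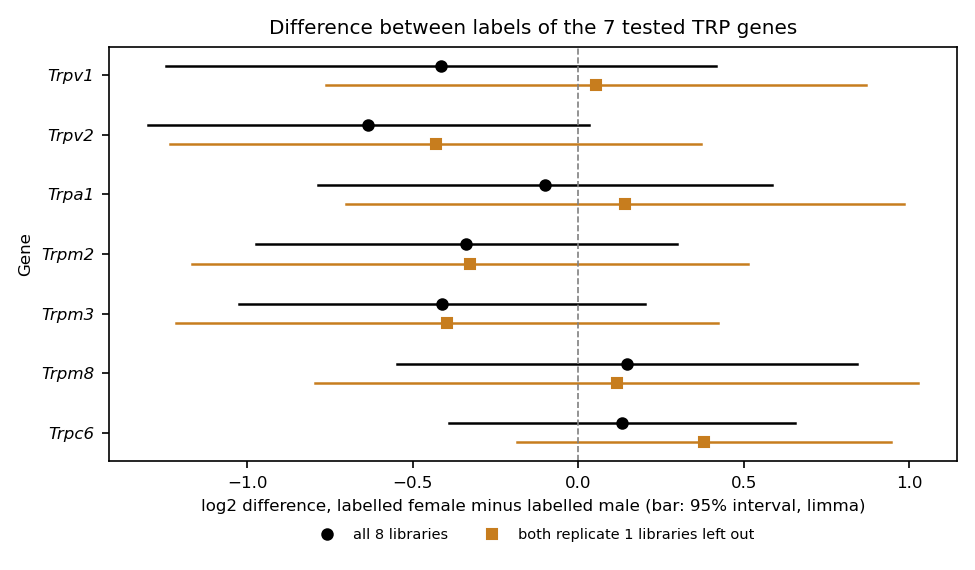
Log2 difference, female minus male label, of the 7 TRP genes tested (horizontal axis), with 95% intervals from limma, for all 8 libraries (circles) and without both replicate 1 libraries (squares). Every interval shown includes 0, and Trpv1 moves from −0.41 with all 8 libraries to 0.05 without the pair.

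Libraries of one label differed widely in these genes. For Trpv1, Trpv2, Trpa1 and Trpm2, the 4 highest values came from the same 4 libraries, those labelled female 2, male 1, male 2 and male 3. Of all genes tested, 23.1% (3352) had their 4 highest values there, so the pattern is common in these data, and for 10.2% (1478) those 4 libraries were the lowest. The first principal component of all genes tested, with 59.3% of the variance, made the same split. Those 4 libraries scored 23.6 to 59.2 on it, and the rest −58.3 to −30.3. The split is uneven between the labels, so it bears on the comparisons by label. Trpm3, Trpm8 and Trpc6 each followed another order. None of the 9 other TRP genes tested had its highest values in those 4 libraries, and for Mcoln1 they were the 4 lowest. The coefficient of variation over the 8 libraries was 41.2% for Trpv1, where counting alone gives 6.99%, and 37.4% for Trpv2, where counting gives 5.68%. For Trpm8 it was 42.9%, where counting gives 23.7%, and for Trpc6 20.3%, where counting gives 9.84%.

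**Figure D4:**
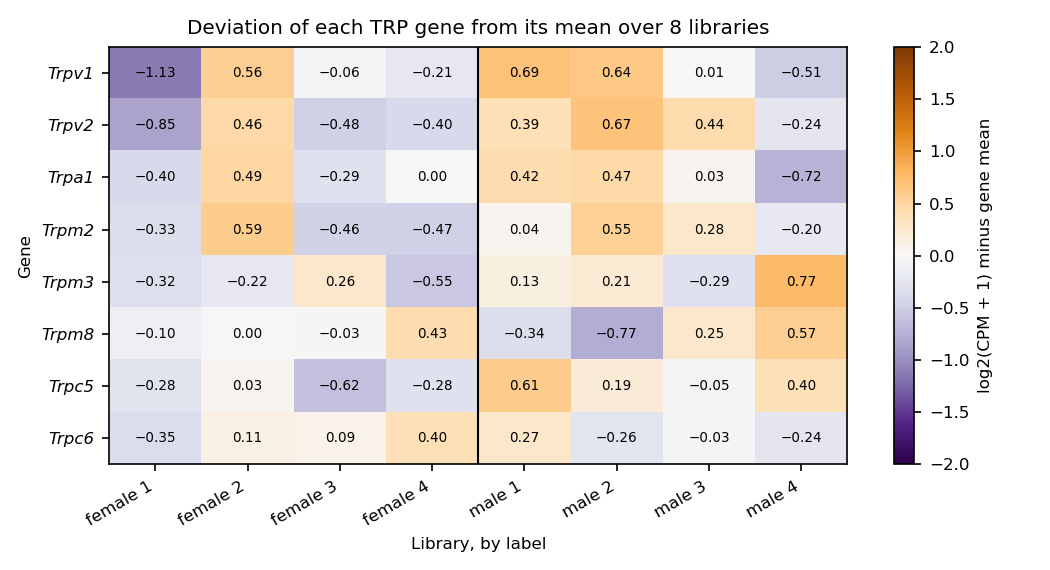
Deviation of log2(CPM + 1) of each TRP gene (rows) from its mean over 8 libraries, in each library (columns, labelled female left of labelled male); orange is above and purple below the mean. Female 2 and male 2 are above the mean for Trpv1, Trpv2, Trpa1 and Trpm2, and female 1 is furthest below it for Trpv1.

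Markers of cell types moved with these 4 genes in both directions. Of the 7 nociceptor markers, 4 had their highest values in the same 4 libraries, among them Scn11a, Calca and Mrgprd, and Tac1 and P2rx3 had their lowest there. Calca, which encodes the peptide CGRP, had 106, 630, 274 and 204 CPM in the libraries labelled female 1 to 4, and 641, 613, 483 and 346 CPM in those labelled male 1 to 4. Of the 8 myelinating Schwann cell markers, 6 had their highest values there, among them Pmp22 and Egr2, and the list summed to 8496 to 17759 CPM in libraries labelled female and to 12694 to 19175 CPM in those labelled male. The 10 pan-sensory-neuron markers summed to 6805 to 16000 CPM and to 5422 to 12265 CPM under the female and the male label, with the 4 lowest values of Prph, Avil, Uchl1 and Scn9a in those 4 libraries. Blood cell markers (4 of 6, among them Hbb-bs and S100a8) also had their highest values there. So did vascular markers (4 of 7, among them Cdh5 and Kdr), while the vascular marker Cldn5 had its lowest there. The macrophage marker Aif1 and the large-diameter neuron marker Nefm also had their lowest values there. Fewer markers of other lists were highest there: 3 of 8 for macrophages, 2 of 6 for satellite glia and 1 of 6 for fibroblasts. The counts were 1 of 7 for large-diameter neurons, 1 of 9 for the central nervous system and 0 of 10 for pan-sensory neurons, against 23.1% of all genes tested. Of the 4 other libraries, 3 (female 3, female 4 and male 4) are those with AY036118 at 0. These 3 also had the most of the mitochondrial RNA mt-Rnr2, 58429 to 86032 CPM, against 26224 to 43891 CPM in the rest. The part of any of these in the levels of the TRP genes was not tested.

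Ratios between TRP genes varied less than their levels in some pairs. Trpv1 over Trpa1 ran from 0.883 to 1.83 and Trpv1 over Trpv2 from 0.488 to 0.897, while Trpv1 alone ranged 3.82-fold. Trpv1 over Trpm8 ran from 4.42 to 49.7, the highest ratio resting on 6 reads of Trpm8. Per 100 reads of Scn10a, Trpv1 gave 0.951 to 4.67 reads in the libraries labelled female and 1.61 to 6.45 reads in those labelled male. Scaling to this nociceptor gene widened the range of Trpv1 to 6.79-fold. Under the female label the ratio to Scn10a averaged 2.76 ± 1.54 reads, and under the male label 3.94 ± 2.17 reads per 100 (SD, n = 4 each).

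The genes whose pattern over the 8 libraries was most like that of each TRP gene were found among the 8591 genes whose mean reached 10 CPM, by the root mean square difference of centred log2(CPM + 1). For Trpv1 they were Mrpl32 (0.12) and Ndufv3 (0.13), for Trpv2 Tars (0.08) and Anapc4 (0.09), and for Trpa1 Gstm2 and Rpl37a (both 0.12). Sft2d2 and Eif4g1 (both 0.09) were closest to Trpm2, and Carns1 (0.15) and Git2 (0.18) to Trpm3. Trpm8 lay closest to Mettl21a (0.15) and Hells (0.19), and Trpc6 to Eif3m (0.08) and Mrps31 (0.11). None of these 14 is a sensory channel or receptor gene, and the points share libraries and depth.

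The other genes of the family and the pathway were read from the same fit. Of the 9 other TRP genes tested, 0 were called, with 3 differences positive and 6 negative. Leaving out both replicate 1 libraries again gave 0 calls, with 4 positive and 5 negative. Trpm4, a calcium-activated cation channel singled out after its values were seen, had 2.61, 3.04, 1.26 and 1.87 CPM in the libraries labelled female 1 to 4, and 5.62, 4.57, 3.43 and 6.15 CPM in those labelled male 1 to 4. Its groups did not overlap, as for 3% of all genes tested with the female label lower. The log2 difference was −0.91 (SE 0.27, 95% interval −1.50 to −0.31), with a limma adjusted p of 0.446. It was −1.03 with an adjusted p of 0.0461 without the library labelled female 2, where 9.33% of all genes were called. It was −0.92 without both replicate 1 libraries (interval −1.69 to −0.14, limma adjusted p = 0.946).

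Receptors that act on TRP channels come next: 14 of 17 listed were tested and 0 were called, with 4 differences positive and 10 negative and a median of −0.33, against −0.18 over all genes tested. Without both replicate 1 libraries 0 were called, with 5 positive and 9 negative and a median of −0.27, against −0.12 over all genes tested. Abundant members of this list were Ret, the receptor of GDNF family ligands, and Ptgir, the prostacyclin receptor. Ret had 273 to 408 CPM under the female label and 289 to 367 CPM under the male label, a log2 difference of 0.01. Ptgir had 25.5 to 31.8 CPM under the female label and 18.1 to 35.6 CPM under the male label. Osmr, the oncostatin M receptor, had the smallest p of the list: 8.92, 37.5, 4.41 and 12.7 CPM in the libraries labelled female 1 to 4, and 32.1, 39.5, 25.9 and 22.7 CPM in those labelled male 1 to 4. Its log2 difference was −1.23 (SE 0.49, 95% interval −2.31 to −0.15, limma adjusted p = 0.446), and −1.75 with an adjusted p of 0.0364 without the library labelled female 2, where 9.33% of all genes were called. Leaving out both replicate 1 libraries gave −1.06 (interval −2.51 to 0.39, limma adjusted p = 0.946). Gfra3, the artemin co-receptor, was the one receptor gene whose groups did not overlap, which held for 1.23% of all genes with the female label higher. It was named after its values were seen, and had 15.9 to 17.9 CPM in libraries labelled female and 11.9 to 13.2 CPM in those labelled male. The highest value under each label was in female 1 (17.9 CPM) and male 1 (13.2 CPM), whose sex genes go against their labels. The log2 difference was 0.38 (limma adjusted p = 0.446), and 0.37 without both replicate 1 libraries (interval −0.15 to 0.89, limma adjusted p = 0.946).

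Signalling and scaffold genes that act on TRP channels were all tested, 26 of 26, and 0 were called, with 5 differences positive and 21 negative and a median of −0.24. With median ratio scaling 15 were negative and the median was −0.039. The fit without both replicate 1 libraries called 0, with 6 positive and 20 negative and a median of −0.13, against −0.12 over all genes. Calm2 encodes calmodulin and Prkaca the catalytic subunit of protein kinase A. Calm2 had 535 to 1757 CPM under the female label and 608 to 1309 CPM under the male label. Prkaca had 404 to 1217 CPM under the female label and 518 to 1108 CPM under the male label. Src, a tyrosine kinase that promotes insertion of Trpv1 in the membrane, had the smallest p of this list. It had 3.15, 4.44, 3.91 and 4.40 CPM in the libraries labelled female 1 to 4, and 9.77, 6.85, 5.78 and 7.9998 CPM in those labelled male 1 to 4. The groups did not overlap, as for 3% of all genes tested with the female label lower, and the log2 difference was −0.78 (SE 0.23, 95% interval −1.29 to −0.26, limma adjusted p = 0.446). It was −0.58 without both replicate 1 libraries (interval −1.18 to 0.027, limma adjusted p = 0.946). That pair, whose sex genes go against their labels, held the lowest value (female 1) and the highest (male 1).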

How the data were processed

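Dorsal root ganglion RNA was measured in 8 QuantSeq 3′ end libraries, 4 per sex label. Cufflinks 2.2.1, TopHat2 2.1.1, Bowtie2 2.2.9 and FastQC 0.11.5 are listed in the submitters' processing notes with the builds mm10 and GRCm38.p4. Which strand setting, filters and gene annotation they used is not given in the sources used here. Values deposited by the authors are named TPM but behave as CPM. Each library sums to 1000000, and 98.3% to 98.6% of its values under 200 reads are whole multiples, within 0.05 of a read, of a step shared by all genes. The step gives 7497795 to 12155806 counted reads a library and a floor (3 reads) of 0.247 to 0.400 CPM. Library differences (female minus male labels) came from limma 3.58.1 with a variance trend on log2(CPM + 1) over the 14505 genes whose mean reached 1 CPM, two-sided, with Benjamini-Hochberg adjustment and a threshold of 0.05. A member under the filter was tested by exact permutation over 70 assignments. The fit was tested on simulated data. Intervals for single libraries are 95% exact binomial and, like the floors, cover counting error only. Alternatives varied the pseudocount, filter, scaling, variance model and libraries. The members and gene lists were chosen with earlier results of these data known. Named besides the members are the 4 most abundant other TRP genes, the 3 most abundant receptors and signalling genes with the smallest-p gene of each, and the 2 genes most like each tested member; several of these are not reported here. Ribosome profiling was not analysed here.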

Additional observations from a re-analysis of the deposited data

Results flagged for a closer look

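Among the 16 sets of 4 libraries checked, 1 for each TRP gene and label, 2 held a library far from the other 3 relative to their whole range; chance flags about 1 in 20. For Trpm2, the library labelled female 2 had 20.9 CPM, where the other 3 labelled female had 9.47 to 10.5 CPM, and the gap was 0.906 of the range. For Trpm8, the library labelled female 4 had 2.80 CPM on 21 reads, where the other 3 labelled female had 1.62 to 1.81 CPM, and the gap was 0.841 of the range. The exact binomial interval of that Trpm8 value, 1.73 to 4.28 CPM, includes the highest of the other 3.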

How the results depend on the processing

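No member was called with all 8 libraries under another pseudocount, filter or scaling, without a variance trend, or with the replicate block. Array weights called 4363 genes (30.1%), with 2 of 7 members, 1 of 9 other TRP genes, 6 of 14 receptors and 9 of 26 signalling genes among them: Trpv2 was −0.85 and Trpm2 −0.62. Leaving out each library in turn gave 0 to 1354 genes, 0 to 1 members, 0 to 1 other TRP genes, 0 to 3 receptors and 0 to 5 signalling genes, the highest counts all without female 2, where 9.33% of all genes were called. Over those fits Trpv1 ran from −0.67 to −0.11, Trpv2 from −0.90 to −0.46, Trpa1 from −0.36 to 0.039, Trpm2 from −0.59 to −0.21, Trpm3 from −0.58 to −0.22, Trpm8 from −0.085 to 0.36, Trpc5 from −0.69 to −0.46 and Trpc6 from 0.019 to 0.27. Without both replicate 1 libraries 6 genes were called, and Trpv1 was 0.054 and Trpa1 0.14; without male 2 as well 4 were called, and Trpv1 was 0.35, Trpa1 0.41 and Trpm8 −0.28. Within the libraries with AY036118 at 0, 223 genes were called and no member, and Trpv1 was 0.38, Trpa1 0.57 and Trpm8 −0.37; within those above 0 Trpc6 was −0.11. Trpa1 was 0.090 with median ratio scaling, 0.12 with quantile normalization and 0.038 with a term for AY036118. The cause was not tested. The replicate block called 0 genes (2694 at an unadjusted p under 0.05). The deviations of same-numbered libraries from their label means correlated at −0.31, 0.70, −0.15 and 0.44. Of the 8 libraries, 3 correlated best with their own number. Those label means include the pair against its labels, so these correlations cannot decide whether same-numbered libraries are paired, and the labels do not say. Count models were not run, since some values are not whole reads. Depth limits Trpm8 and Trpc5 most, with 146 and 45 reads in all.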
